A study of Mus musculus with 29 samples.

Results

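The insulin-like growth factor (IGF) axis and growth hormone signalling were followed in mouse liver through 9 genes: Igf1, Igfbp1, Igfbp2, Igfbp3, Igfbp4, Igfals, Ghr, Stat5b and Socs2. Members were every non-control spot (control type 0) carrying one of these gene names, which gave 18 of 39429 probes, on 27 of 43020 spots, and 9 of 31693 gene names. The livers came from 29 male C57BL/6N mice, 3 months old at the start, which ate a corn oil-based high-fat diet for 7 weeks. In cHF+PC (8 livers) omega-3 phospholipids rich in phosphatidylcholine, carrying the marine fatty acids EPA and DHA, took the place of about 7% of the dietary lipid. In cHF+R (6 livers) the diet held a low dose of rosiglitazone, a drug that activates the nuclear receptor PPAR-gamma and sensitises tissues to insulin. In cHF+PC+R (8 livers) it held both, and in cHF (7 livers) neither. All groups thus share the high-fat base, and no mice on another base diet were compared here. The samples are whole liver, in which fewer cells of a type and less RNA per cell cannot be told apart.

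Growth hormone binds its receptor, encoded by Ghr, on hepatocytes, and the kinase JAK2 then phosphorylates STAT5B, which switches on Igf1, Igfals and the feedback inhibitor Socs2. Hepatic IGF-I circulates in a complex with IGFBP3 and the acid-labile subunit, the product of Igfals. The other binding proteins carry smaller pools of IGF: IGFBP1 is repressed by insulin and rises on fasting, IGFBP2 is a hepatic product that tends to be low in obesity and fatty liver, and IGFBP4 mostly holds IGF away from its receptor.

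Each value is the log2 ratio of 1 liver, labelled with Cy5, to a pool of all samples, labelled with Cy3. Changes given below are group means of these ratios subtracted from each other, and each probe is read against itself alone. Spots well above background in Cy5 made up 80.8% on cHF replicate 4 and 55.0% to 62.5% on the other arrays. How many arrays a group has limits its precision. Among pairs of arrays the lowest r was -0.31 (cHF+PC replicate 6 with cHF+R replicate 5), against medians of 0.36 within groups and 0.17 between groups. The dyes are stated in the labels and the pool held every group, so ratios may oppose each other and their direction was left as it is. Hepatocyte markers such as Alb, Ttr and Hnf4a were well above background on all 29 arrays. All 18 member probes were likewise well above background on all 29 arrays, none was saturated, and all were among the 23932 probes tested.

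Igfbp2 showed the largest change past the threshold (an adjusted p of 0.05) among the members: its transcript was about 2.3 times higher in cHF+PC than in cHF and about 2.8 times higher in cHF+PC+R than in cHF. Igfbp4 rose in the same comparisons by about 1.2 times. Ghr fell in cHF+R and in cHF+PC+R against cHF, by 0.26 to 0.34 on the log2 scale. Probes for Igf1, Igfals, Stat5b, Socs2, Igfbp1 and Igfbp3 did not pass the threshold in any of the 6 comparisons. Of the 18 member probes, 3 rose and 0 fell in cHF+PC against cHF, where 3.84% of all tested probes passed (1.86% higher, 1.98% lower). For cHF+R against cHF, 0 rose and 2 fell, with 2.98% of all probes passing (1.96% higher, 1.02% lower). The counts in cHF+PC+R against cHF were 3 up and 2 down, with 9.03% of all probes passing (4.55% higher, 4.49% lower). Against cHF+R, 3 rose and 0 fell in cHF+PC+R, with 6.7% of all probes passing (3.12% higher, 3.58% lower). Against cHF+PC, limma called 0 member probes in cHF+PC+R and 0.113% of all probes (0.0961% higher, 0.0167% lower). The interaction of the phospholipids with rosiglitazone gave 0 member probes and 0% of all probes. At an unadjusted p under 0.05 the members counted 6, 7, 8, 4, 3 and 1 in these comparisons, in the same order, where all probes gave 18.2%, 14.7%, 24.1%, 21.9%, 8.35% and 6.66%. Single arrays moved some of the counts over all probes by more than 1.5 times. In cHF+PC against cHF, 918 probes passed. That count was 511 when cHF+PC replicate 4 was left out, 598 on omitting cHF replicate 3 and 563 on omitting cHF replicate 5. Between cHF+PC+R and cHF+R, 1603 passed, but 887 without cHF+R replicate 1, and between cHF+PC+R and cHF+PC the count of 27 ranged from 7 to 58 over arrays left out in turn. The median log2 change of the 18 probes against cHF was -0.05 in cHF+PC, -0.08 in cHF+R and 0.01 in cHF+PC+R, against 0.00, 0.01 and 0.01 over all tested probes. The comparisons against cHF share its 7 livers.

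**Figure D1:**
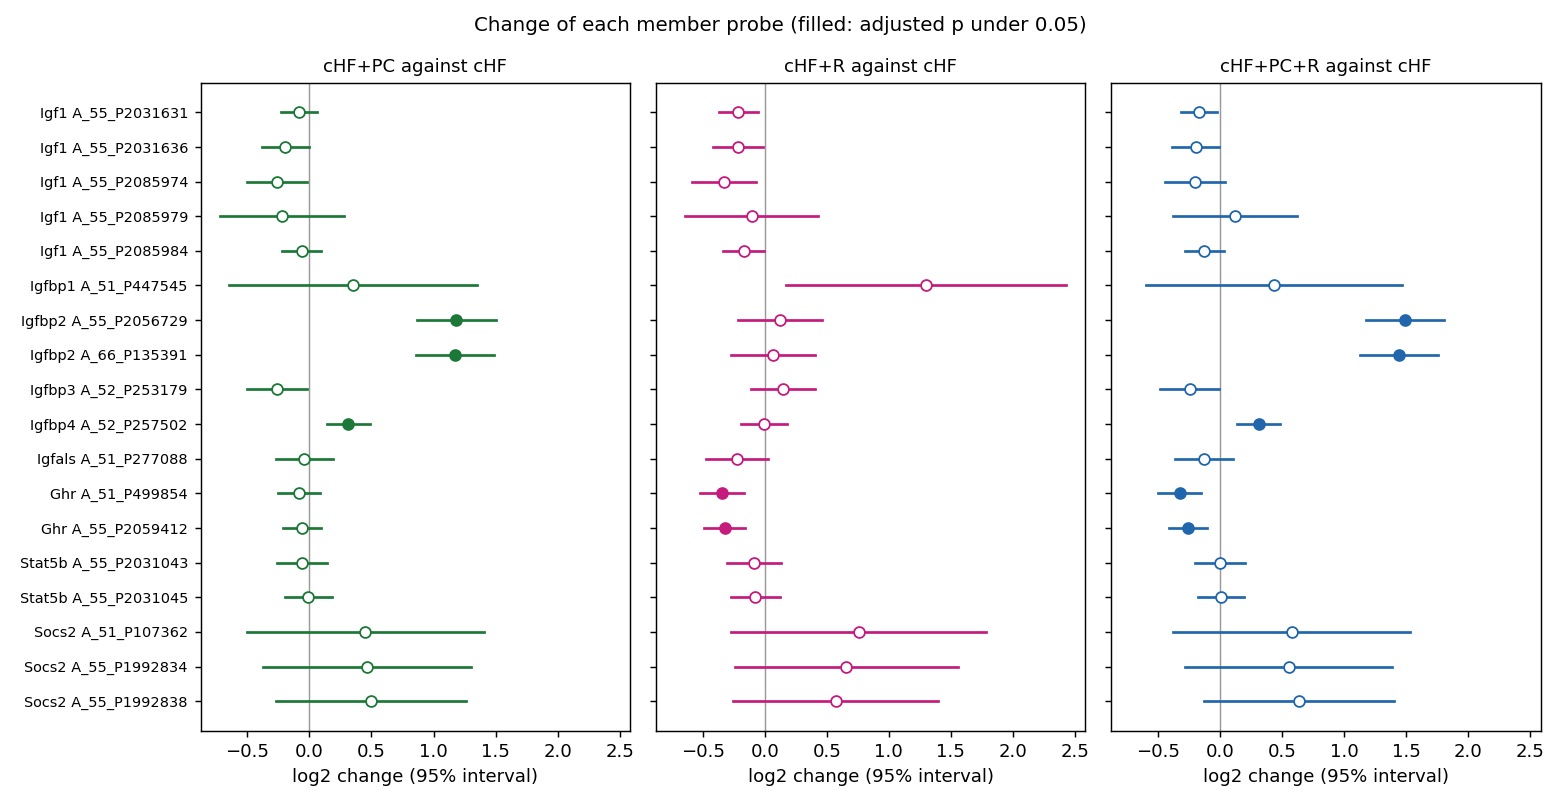
Log2 change of each of the 18 member probes (rows, by gene and probe) against cHF in cHF+PC (left), cHF+R (middle) and cHF+PC+R (right); points are limma estimates, lines are 95% intervals and filled points have an adjusted p under 0.05. Both Igfbp2 probes lie near 1.2 in cHF+PC and near 1.5 in cHF+PC+R but near 0 in cHF+R, and the Igfbp1 and Socs2 intervals are the widest.

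Igf1 encodes IGF-I, the circulating growth factor made mainly in liver. Of its 5 probes, 4 are assigned to transcript variant 1 and the other, A_55_P2085979, to transcript variant 2. The variant 1 probe of highest mean intensity, A_55_P2031631 (mm9 chr10:87393581-87393640, plus strand), shares 40 of its 60 bases with A_55_P2085984, which starts 20 bases before it, so that pair is close to a single measurement. The first 30 bases of the brightest variant 1 probe and of the variant 2 probe, whose starts lie 15125 bases apart, are shown because their values part ways below.
Igf1 A_55_P2031631: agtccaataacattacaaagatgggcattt
Igf1 A_55_P2085979: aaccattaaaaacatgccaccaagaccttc

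The variant 1 probe A_55_P2031631 ranged over -0.09, 0.10 and 0.32 (lowest, median and highest log2 ratio) in cHF+PC livers, -0.29, -0.05 and 0.18 in cHF+R, -0.17, 0.03 and 0.14 in cHF+PC+R, and 0.06, 0.18 and 0.29 in cHF. The groups overlapped in every comparison. Its log2 change was -0.21 ± 0.08 in cHF+R (SE; limma, adjusted p = 0.143), -0.16 ± 0.07 in cHF+PC+R (adjusted p = 0.145) and -0.09 ± 0.07 in cHF+PC (adjusted p = 0.563). Within slides, the cHF+R liver was lower than the cHF liver in 5 of 5 slides and the cHF+PC+R liver in 7 of 7. All 4 variant 1 probes had negative estimates in the 3 comparisons against cHF, from -0.33 to -0.06. The lowest, -0.33 ± 0.13 for A_55_P2085974 in cHF+R, had an adjusted p of 0.186, and with the slide as a block it was -0.42 with an adjusted p of 0.0331.

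The variant 2 probe A_55_P2085979 (mm9 chr10:87378456-87378515, plus strand) behaved differently within every group. Its SD pooled over groups was 0.51, against 0.14 to 0.24 for the variant 1 probes, and 0.919% of tested probes had a larger one. It ranged over -0.67, -0.33 and 0.60 in cHF+PC livers, -0.58, -0.28 and 0.86 in cHF+R, -0.48, -0.15 and 1.04 in cHF+PC+R, and -0.55, -0.31 and 0.90 in cHF. The highest liver of each group stood far above its median, and the groups overlapped throughout. After removal of group means, its values across livers had r between 0.00 and 0.12 with the variant 1 probes, while those probes had r between 0.62 and 0.99 with each other. Its changes against cHF were -0.22 ± 0.24 in cHF+PC, -0.10 ± 0.26 in cHF+R and 0.12 ± 0.24 in cHF+PC+R (adjusted p from 0.694 to 0.903).

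Igfbp2 encodes a binding protein that liver secretes into the blood. Its 2 probes start 136 bases apart and share no base. The first, A_55_P2056729 (mm9 chr1:72898677-72898736, plus strand), is printed whole with its final stop codon in capitals, and it holds no other stop codon in that frame. Of the second, A_66_P135391, the first 30 bases (mm9 chr1:72898813-72898842, plus strand) are given.
Igfbp2 A_55_P2056729: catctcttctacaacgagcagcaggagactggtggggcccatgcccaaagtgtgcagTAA
Igfbp2 A_66_P135391: aggagttcccagttttgacacatgtattta

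By A_66_P135391, Igfbp2 ranged over -0.04, 0.20 and 0.70 in cHF+PC livers, -1.13, -0.96 and -0.37 in cHF+R, -0.15, 0.51 and 0.95 in cHF+PC+R, and -1.38, -0.94 and -0.09 in cHF. All 8 cHF+PC livers stood above all 7 cHF livers, and all 8 cHF+PC+R livers above all 6 cHF+R livers. By A_55_P2056729 the cHF+PC and cHF groups overlapped, since cHF+PC replicate 7, at -0.21, lay below cHF replicate 1, at -0.19, while the cHF+PC+R and cHF+R groups again did not overlap. Of the cHF+PC+R livers, 7 of 8 stood above every cHF liver. The exception was replicate 6, which overlapped cHF replicate 1, the highest of its group. The cHF+R livers lay within the range of the cHF livers. Non-overlapping groups were seen for 1.36% of all tested probes in cHF+PC against cHF and for 1.56% in cHF+PC+R against cHF+R.

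These ratios gave a log2 change of 1.17 ± 0.15 in cHF+PC against cHF, a 2.25-fold rise (SE; adjusted p = 3.64e-05). For cHF+PC+R it was 1.44 ± 0.15 against cHF, a 2.72-fold rise (adjusted p = 6e-07), and 1.37 ± 0.16 against cHF+R (adjusted p = 3.36e-06). The second probe, A_55_P2056729, gave 1.18, 1.49 and 1.36 in the same comparisons. In cHF+R the changes were 0.07 (95% interval -0.27 to 0.41, adjusted p = 0.896) and 0.13 (95% interval -0.21 to 0.47, adjusted p = 0.785). The cHF+PC+R livers exceeded the cHF+PC livers by 0.27 ± 0.15 and 0.31 ± 0.15, and neither passed (adjusted p = 0.652 and 0.595). The interaction was 0.20 ± 0.22 by A_66_P135391 (adjusted p = 0.917). Within slides, cHF+PC was higher than cHF in 7 of 7 slides, by 0.05 to 1.45 with A_66_P135391, and cHF+PC+R was higher than cHF in 7 of 7, by 0.61 to 2.33. Without cHF replicate 4, the array with the most spots above background, the changes by this probe were 1.13 in cHF+PC and 1.40 in cHF+PC+R. When ratios were scaled between arrays, all Igfbp2 calls were lost, with a change of 1.40 and an adjusted p of 0.0701 for A_66_P135391 in cHF+PC. Centring on the median in place of loess lost those in cHF+PC (1.21, adjusted p = 0.185) and against cHF+R (1.17, adjusted p = 0.109) but not those in cHF+PC+R against cHF.

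**Figure D2:**
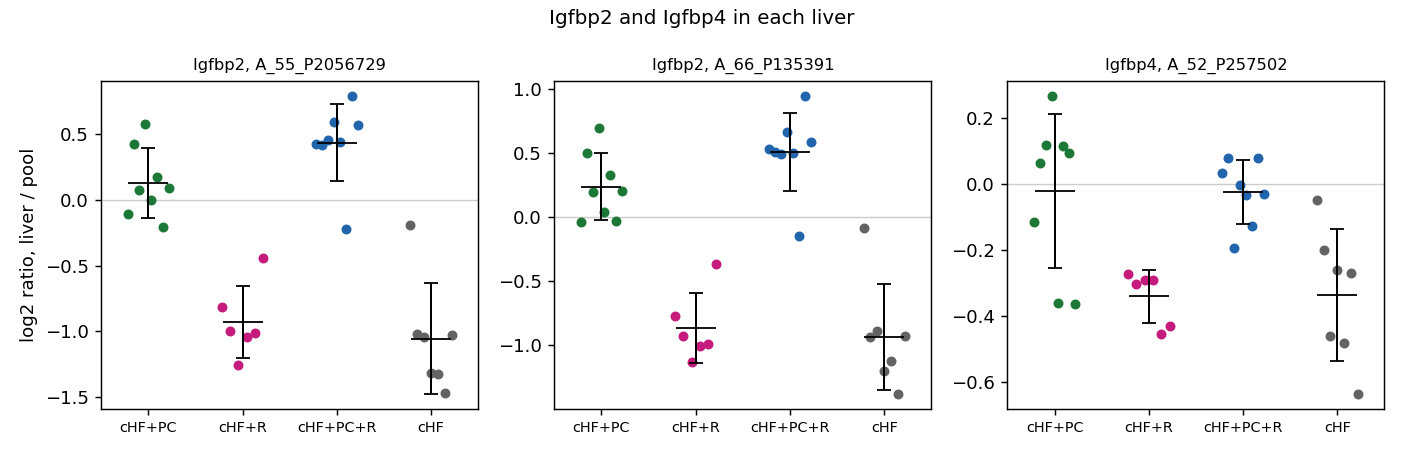
Log2 ratio of liver to pool for both Igfbp2 probes and the Igfbp4 probe, with 1 point per liver in cHF+PC, cHF+R, cHF+PC+R and cHF (left to right); bars are group means ± SD. For Igfbp2 the cHF+PC and cHF+PC+R livers lie above 0 or just below it, and the cHF+R and cHF livers, except cHF replicate 1, at -0.37 or lower.

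Igfbp4 encodes a binding protein that is abundant in liver. Of its single probe, A_52_P257502, which reports the other gene that rose, the first 30 bases (mm9 chr11:98913334-98913363, plus strand) are shown.
Igfbp4 A_52_P257502: gagaagagaaacctcattcttggagtgaga

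Igfbp4 ranged over -0.36, 0.08 and 0.27 in cHF+PC livers, -0.46, -0.30 and -0.27 in cHF+R, -0.20, -0.02 and 0.08 in cHF+PC+R, and -0.64, -0.27 and -0.05 in cHF. The cHF+PC+R and cHF+R groups did not overlap, which was so for 1.56% of all tested probes. Each group with phospholipids overlapped cHF, but 5 of 8 cHF+PC livers and 6 of 8 cHF+PC+R livers stood above every cHF liver. The log2 change was 0.31 ± 0.08 in cHF+PC (adjusted p = 0.0304), 0.31 ± 0.08 in cHF+PC+R (adjusted p = 0.0177) and 0.32 ± 0.09 in cHF+PC+R against cHF+R (adjusted p = 0.0269). In cHF+R against cHF it was 0.00 (95% interval -0.19 to 0.18, adjusted p = 0.993). With the slide as a block the 3 calls stood (adjusted p = 0.0321, 0.0180 and 0.0193), and cHF+PC+R was higher than cHF in 7 of 7 slides while cHF+PC was higher in 5 of 7. The call in cHF+PC was lost on leaving out any of cHF+PC replicates 2, 3, 4, 6 and 7 or cHF replicates 3, 5 and 7 (adjusted p from 0.0519 to 0.0801), and the call against cHF+R without cHF+R replicate 5 (0.0640) or cHF+PC+R replicate 7 (0.0501). All 3 Igfbp4 calls were lost on median centring and on scaling between arrays (adjusted p from 0.488 to 1.00).

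Igfbp3 encodes the main carrier of IGF-I in blood. Its probe, A_52_P253179, ranged over -0.48, -0.07 and 0.01 in cHF+PC livers, 0.00, 0.29 and 0.46 in cHF+R, -0.42, -0.17 and 0.22 in cHF+PC+R, and -0.33, 0.05 and 0.76 in cHF. All pairs of groups that were compared overlapped. The largest difference, -0.39 ± 0.12 in cHF+PC+R against cHF+R, lay just beyond the threshold (adjusted p = 0.0514). With the slide as a block it was -0.39 with an adjusted p of 0.0430, and 5 of 6 slides had the lower value in the cHF+PC+R liver. It also passed without background subtraction, with Feature Extraction signals, in the deposited table, over probes well above background on all arrays, with only the compared groups and with array weights (adjusted p from 0.0260 to 0.0453), and on leaving out any of cHF+PC replicates 5 and 7, cHF+R replicate 2, cHF+PC+R replicates 1 and 2 or cHF replicates 1 and 3 (adjusted p from 0.0178 to 0.0495). It did not pass in the other alternatives, among them median centring, scaling between arrays, Cy5 alone and 1 probe per gene. Nor did it pass with any other array left out. In cHF+PC against cHF the change was -0.26 ± 0.12 (adjusted p = 0.233). Liver IGFBP3 is known to come largely from non-parenchymal cells. Markers of such cells had lower medians in cHF+PC+R than in cHF+R as well. The median log2 change was -0.13 over 10 Kupffer cell markers (range -0.67 to 0.01, 0 passing), -0.13 over 12 stellate cell markers (range -0.58 to 0.04, 1 lower) and -0.04 over 11 endothelial markers (range -0.22 to 0.18, 0 passing), against -0.01 over all probes. In that comparison 6.7% of all tested probes passed. The part of such cells in the Igfbp3 difference was not tested.

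Igfals encodes the acid-labile subunit, which stabilises the circulating complex. The ratio ranged over -0.64, -0.15 and 0.10 in cHF+PC livers, -0.63, -0.33 and -0.23 in cHF+R, -0.66, -0.34 and 0.19 in cHF+PC+R, and -0.53, -0.21 and 0.13 in cHF. The groups overlapped in all comparisons. Its log2 change against cHF was -0.22 ± 0.12 in cHF+R (adjusted p = 0.402), -0.13 ± 0.11 in cHF+PC+R (adjusted p = 0.525) and -0.04 ± 0.11 in cHF+PC (adjusted p = 0.894).

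Igfbp1 encodes the insulin-repressed binding protein, and its pooled SD of 1.02 was exceeded by 0.0752% of tested probes. The probe, A_51_P447545, had a value in 27 livers, since the spots of cHF+R replicate 6 and cHF+PC+R replicate 2 were marked as outliers and left out. It ranged over -2.04, -0.86 and 2.62 in 8 cHF+PC livers, -0.36, 0.62 and 0.80 in 5 cHF+R livers, -1.61, -0.82 and 1.51 in 7 cHF+PC+R livers, and -1.40, -0.89 and -0.68 in 7 cHF livers. The whole range spans 25.2-fold. All 5 cHF+R livers lay above all 7 cHF livers, whereas the other groups overlapped cHF on both sides. The log2 change in cHF+R was 1.30 ± 0.55 and did not pass (adjusted p = 0.248), although the cHF+R liver was higher in 4 of 4 slides, by 0.52 to 1.58. With only the cHF+R and cHF livers in the fit, which takes the spread from those groups alone, the adjusted p was 0.00454. In cHF+PC the change was 0.35 ± 0.49 (adjusted p = 0.765) and in cHF+PC+R 0.43 ± 0.50 (adjusted p = 0.649). In cHF+R against cHF, 3 of the 18 member probes came from groups that did not overlap (this one and both for Ghr), compared with 2.02% of all tested probes.

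Promoter windows of RefSeq (GRCm38.p6), from 250 bases before a start to 50 after it, were matched by symbol for 8 of the 9 members, all but Socs2, in 13 windows. They were searched on both strands for CAAAACAA, the insulin response element known to bind FoxO proteins, for GTAAACA, the forkhead core, and for TTCNNNGAA, the form of site that STAT5 proteins bind. CAAAACAA was in 1 member window, that of Igfbp1, and in 2.51% of all 32851 windows. TTCNNNGAA was in 2 member windows, both of Igfals, and in 8.3% of all windows. GTAAACA was in 1 member window, again of Igfals, and in 3.65% of all windows. A match describes letters and not a bound site. The 250 bases before the Igfbp1 start (chr11:7197537-7197786, plus strand) are printed with CAAAACAA in capitals, followed by the 30 bases around each TTCNNNGAA match of Igfals (chr17:24877598-24877627 and chr17:24878163-24878192, plus strand), since these are the windows in which the searched letters occurred.
Igfbp1: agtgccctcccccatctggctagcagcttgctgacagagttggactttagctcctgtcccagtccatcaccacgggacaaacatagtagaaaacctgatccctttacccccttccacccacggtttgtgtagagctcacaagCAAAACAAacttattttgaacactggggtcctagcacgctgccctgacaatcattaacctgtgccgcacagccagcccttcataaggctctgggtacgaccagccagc
Igfals, first match: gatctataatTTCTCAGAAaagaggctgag
Igfals, second match: ctgccaggtgTTCCTAGAAgaggccctggg

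Ghr encodes the growth hormone receptor, and in mouse a shorter transcript is known to encode the growth hormone-binding protein. Probe A_51_P499854 is assigned to transcript variant 1 and A_55_P2059412 to transcript variant 2, and their starts lie 9436 bases apart. Their first 30 bases (mm9 chr15:3268137-3268166 and chr15:3277573-3277602, minus strand) are given because 2 probes for separate transcripts moved alike.
Ghr A_51_P499854: atctctttcatgcaggagagacagtgaaaa
Ghr A_55_P2059412: cttgtgggcacctgcattcatatgcacata

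By A_55_P2059412, Ghr ranged over -0.33, 0.14 and 0.24 in cHF+PC livers, -0.32, -0.21 and -0.12 in cHF+R, -0.49, -0.11 and 0.09 in cHF+PC+R, and 0.05, 0.11 and 0.20 in cHF. All 6 cHF+R livers lay below all 7 cHF livers by this probe and below all 6 measured cHF livers by A_51_P499854. The cHF+R and cHF groups did not overlap for 2.02% of all tested probes. Of the 8 cHF+PC+R livers, 7 lay below every cHF liver by A_55_P2059412. With A_51_P499854, which had a value in 26 livers, all 7 measured cHF+PC+R livers lay below all 6 measured cHF livers, and the groups of that comparison did not overlap for 2.32% of all tested probes. The cHF+PC livers overlapped cHF on both sides.

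The log2 change of Ghr in cHF+R was -0.34 ± 0.09 by A_51_P499854 (adjusted p = 0.0242) and -0.32 ± 0.08 by A_55_P2059412 (adjusted p = 0.0226). The change in cHF+PC+R against cHF was -0.32 ± 0.08 (adjusted p = 0.0142) and -0.26 ± 0.08 (adjusted p = 0.0283). In cHF+PC it was -0.08 ± 0.08 and -0.06 ± 0.08, and neither passed (adjusted p = 0.654 and 0.745). The difference between cHF+PC+R and cHF+PC, -0.24 ± 0.08 and -0.20 ± 0.07, did not pass either (adjusted p = 0.343 and 0.409), nor did the interaction (0.10 ± 0.12 and 0.12 ± 0.11, adjusted p = 0.922 and 0.886). Within slides the cHF+R liver was lower than the cHF liver in 4 of 4 slides by A_51_P499854 and in 5 of 5 by A_55_P2059412. With the slide as a block both calls in cHF+R were lost at changes of -0.31 and -0.30 (adjusted p = 0.109 and 0.0688), and in cHF+PC+R the changes were -0.32 and -0.25 (adjusted p = 0.0373 and 0.0563). Centring on the median, under which the median of all probes was 0.14 higher in cHF+R than in cHF, gave -0.16 and 0.00 in cHF+R (adjusted p = 0.768 and 0.994) and -0.30 and -0.16 in cHF+PC+R (adjusted p = 0.937 for both). Scaling between arrays also ended all Ghr calls (adjusted p from 0.328 to 0.637), at changes of -0.32 and -0.44 in cHF+R and -0.24 and -0.23 in cHF+PC+R. The Cy5 channel alone ended those of A_55_P2059412, at -0.23 in both groups (adjusted p = 0.343 and 0.135).

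Single livers also decided some Ghr calls. The call in cHF+R by A_51_P499854 was lost without cHF+R replicate 1 or 3 or cHF replicate 2 or 3 (adjusted p from 0.0524 to 0.0718), and by A_55_P2059412 without cHF+R replicate 3 or 5 (0.0512 and 0.0561). The call in cHF+PC+R by A_55_P2059412 was lost without cHF+PC+R replicate 3 or 4 or cHF replicate 2 or 5 (0.0516 to 0.0650). Of 5 adipocyte markers listed, Cfd and Retn were tested. Both rose in cHF+R against cHF, neither passed in cHF+PC+R against cHF (the lower log2 change of the pair was 0.35 and the higher 1.51), and 1 was lower in cHF+PC+R than in cHF+R, while Adipoq and Plin1 were well above background on 2 arrays each and Lep on 0. The mean log2 ratio of Cfd and Retn ranged from -0.72 to 1.92 in cHF+R, from -2.71 to 2.01 in cHF+PC+R and from -2.49 to -1.36 in cHF. Of all tested probes, 2.98% passed in cHF+R against cHF, 9.03% in cHF+PC+R against cHF and 6.7% in cHF+PC+R against cHF+R. The part of Cfd and Retn in the Ghr result was not tested. Of 10 hepatocyte markers, 0 rose and 1 fell in cHF+R, with a median change of -0.16. In cHF+PC+R against cHF, where Ghr also fell, 1 rose and 2 fell, with a median of 0.07. All tested probes passed at 2.98% and 9.03% in these comparisons, with medians of 0.01 and 0.01. The part of hepatocyte content in the Ghr result was not tested.

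**Figure D3:**
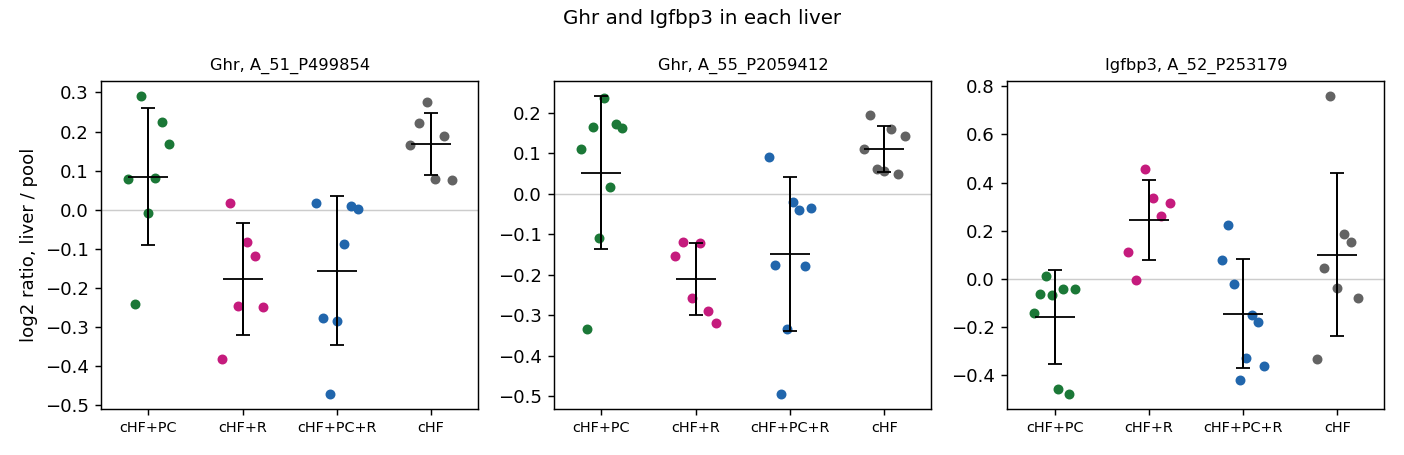
Log2 ratio of liver to pool for both Ghr probes and the Igfbp3 probe, with 1 point per liver in cHF+PC, cHF+R, cHF+PC+R and cHF (left to right); bars are group means ± SD. For Ghr every cHF+R liver lies below every cHF liver, and for Igfbp3 the cHF+R livers lie between 0.00 and 0.46.

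Stat5b encodes the transcription factor that carries the growth hormone signal to the nucleus. Its 2 probes followed each other (r = 0.96 across livers after removal of group means). By A_55_P2031043 it ranged over -0.42, 0.16 and 0.42 in cHF+PC livers, -0.10, 0.06 and 0.22 in cHF+R, -0.09, 0.06 and 0.53 in cHF+PC+R, and 0.01, 0.13 and 0.23 in cHF. The groups overlapped throughout. The changes against cHF lay between -0.09 and 0.01 over both probes (adjusted p from 0.761 to 0.999).

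Socs2 encodes the feedback inhibitor of the receptor. Its 3 probes, of which A_51_P107362 is printed in 10 spots, had r of 0.98 to 0.99 with each other across livers, so the spread they show is shared by separate sequences. By A_51_P107362 it ranged over -1.77, -0.30 and 1.47 in cHF+PC livers, -1.32, -0.07 and 1.28 in cHF+R, -1.30, -0.14 and 2.04 in cHF+PC+R, and -1.59, -0.71 and 0.65 in cHF, a span of 14.0-fold. Its pooled SD of 0.97 was exceeded by 0.0919% of tested probes, and the groups overlapped throughout. The changes against cHF were 0.45 ± 0.47 in cHF+PC, 0.76 ± 0.50 in cHF+R and 0.58 ± 0.47 in cHF+PC+R, and none passed (adjusted p = 0.667, 0.520 and 0.481).

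**Figure D4:**
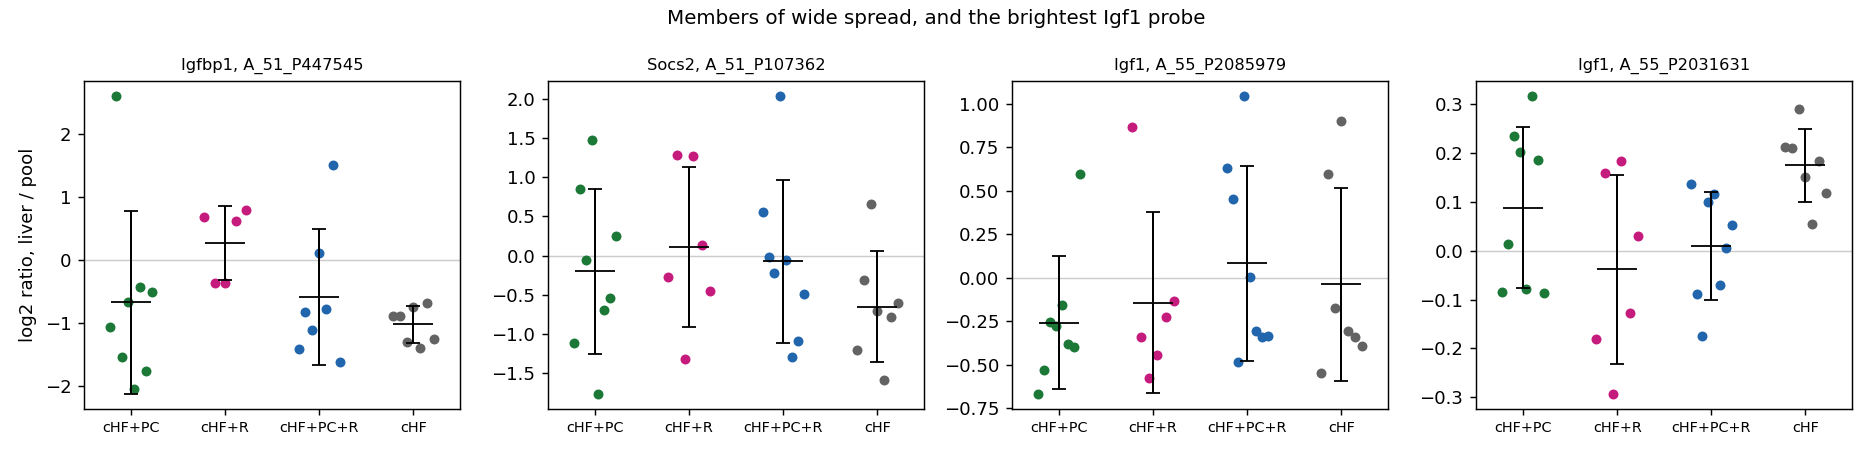
Log2 ratio of liver to pool for Igfbp1, Socs2, the Igf1 variant 2 probe (A_55_P2085979) and the brightest Igf1 variant 1 probe (A_55_P2031631), with 1 point per liver in cHF+PC, cHF+R, cHF+PC+R and cHF (left to right); bars are group means ± SD and the vertical scales differ. Igfbp1 spans -2.04 to 2.62 and Socs2 -1.77 to 2.04, while the variant 1 probe spans -0.29 to 0.32.

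Members were also set against each other across livers, as deviations from group means, in 6 pairs with 100000 permutations within groups. Igf1 (A_55_P2031631) and Socs2 had r = 0.53 (permutation p = 0.00811, 0.0487 adjusted over the 6 pairs) and rho = 0.49 (p = 0.016, adjusted 0.096). Without the 2 livers farthest from the Igf1 median r was 0.55. Over all 29 livers, with the slide removed in addition to the group, r was 0.53. Igf1 and Igfals had r = 0.38 and rho = 0.34 (permutation p = 0.046 and 0.0931, adjusted 0.102 and 0.186). Igfals and Socs2 had r = 0.39 and rho = 0.37 (permutation p = 0.0545 and 0.0634, adjusted 0.102 and 0.186), and r was 0.09 with the slide removed. Igfbp1 and Igfbp2 had r = 0.35 and rho = 0.25 over 27 livers (permutation p = 0.0682 and 0.21, adjusted 0.102 and 0.315). Ghr and Igf1 had r = 0.17 and rho = 0.16 (permutation p = 0.413 and 0.447, adjusted 0.496 and 0.536), and Igf1 and Igfbp3 r = -0.04 and rho = -0.05 (permutation p = 0.825 and 0.808). All values of a liver share an array and its normalization.

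Among 18506 genes measured in all 29 livers, those whose ratios ran most like Igfbp2 were Ivd (r = 0.89), an enzyme of leucine breakdown, Scarb1 (0.89), the receptor for high-density lipoprotein, and Krt23 (0.88), a keratin. Krt23 rose by 3.58 ± 0.26 in cHF+PC and by 3.18 ± 0.26 in cHF+PC+R against cHF on the log2 scale (adjusted p = 9.91e-10 and 3.80e-09). The genes most like Igfbp4 were Retreg2 (0.80), the transcript ENSMUST00000100889 (0.79) and Nit1 (0.79). Those most like Ghr were the transcript ENSMUST00000080361 (0.86), Car5a (0.85), a mitochondrial carbonic anhydrase, and Akr1c6 (0.83), a hydroxysteroid dehydrogenase. Akr1c6 and Car5a fell in cHF+R by 0.47 and 0.42 (adjusted p = 0.000623 and 0.00614). These correlations include the differences between groups and are a description.

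Of 20 other genes of the IGF axis that were listed, 12 were tested, each by its brightest probe, and 0 rose and 0 fell in cHF+PC, 0 rose and 1 fell in cHF+R, and 3 rose and 2 fell in cHF+PC+R against cHF, with median log2 changes of -0.01, 0.03 and 0.03. Over all tested probes 3.84%, 2.98% and 9.03% passed in these comparisons. Grb14, an adaptor that inhibits the insulin receptor, fell by 0.33 ± 0.08 in cHF+R (adjusted p = 0.0170) and by 0.25 ± 0.07 in cHF+PC+R (adjusted p = 0.0350). Irs1, which passes on insulin and IGF signals, rose by 0.36 ± 0.09 in cHF+PC+R (adjusted p = 0.0128), but its other probe had 0.09 (adjusted p = 0.379). Igf2r, which clears IGF-II, rose by 0.20 ± 0.06 there, and Insr, the insulin receptor, by 0.21 ± 0.07, with its other probes at 0.04 and 0.06. Igf2bp2, an RNA-binding protein of Igf2 transcripts, fell by 0.20 ± 0.05. Irs2 had changes of 0.56 ± 0.18, 0.43 ± 0.19 and 0.44 ± 0.18 in cHF+PC, in cHF+R and in cHF+PC+R (adjusted p = 0.0688, 0.263 and 0.110), and Igf1r, the IGF-I receptor, lay between -0.05 and -0.01.

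Of 20 other genes listed under growth hormone receptor signalling, all were tested. Against cHF, 0 rose and 0 fell in cHF+PC and 2 rose and 0 fell in cHF+PC+R, with medians of 0.00 and 0.07. All tested probes passed at 3.84% and 9.03% in these comparisons, with medians of 0.00 and 0.01, so the count in cHF+PC+R is near that share. Klb, which was on the list although it encodes the co-receptor of FGF21, rose by 0.34 ± 0.08 in cHF+PC+R (adjusted p = 0.00649). Sh2b1, an adaptor of JAK2, rose there by 0.19 ± 0.05 (adjusted p = 0.0225). Jak2 itself had changes between -0.05 and -0.02. Cish, another feedback inhibitor, had -0.83 ± 0.73 in cHF+PC, -0.19 ± 0.78 in cHF+R and 0.10 ± 0.73 in cHF+PC+R, with none past the threshold (adjusted p from 0.597 to 0.956).

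Sex-biased genes are a known readout of growth hormone in rodent liver, where its pulses in males and its steadier level in females set their expression. Of 12 tested male-biased genes, 2 rose and 1 fell in cHF+PC, 0 rose and 1 fell in cHF+R, and 2 rose and 1 fell in cHF+PC+R, with medians of 0.28, -0.09 and 0.04. All tested probes passed at 3.84%, 2.98% and 9.03% in these groups against cHF, with medians of 0.00, 0.01 and 0.01. Cyp4a12a rose by 0.97 ± 0.23 in cHF+PC (adjusted p = 0.0146) and by 0.86 ± 0.24 in cHF+PC+R. Cyp4a12b rose by 0.84 ± 0.21 and 0.75 ± 0.21, and these relatives may share probes' signal. Elovl3, a fatty acid elongase, fell by 1.16 ± 0.32 in cHF+PC (adjusted p = 0.0342). Cyp2d9 fell by 0.65 ± 0.09 in cHF+R (adjusted p = 7.02e-05), and Slco1a1, a bile acid and drug transporter, fell by 0.65 ± 0.17 in cHF+PC+R (adjusted p = 0.0174). Of 11 tested female-biased genes, 2 rose in cHF+PC, 0 in cHF+R and 4 in cHF+PC+R, and 0 fell in each, with medians of 0.11, 0.07 and 0.22. The shares of all tested probes that rose were 1.86%, 1.96% and 4.55%. Cyp3a16 rose by 0.87 ± 0.13 in cHF+PC and by 0.91 ± 0.13 in cHF+PC+R (adjusted p = 9.04e-05 and 2.61e-05). Cyp2a4 rose by 1.26 ± 0.30 in cHF+PC (adjusted p = 0.0157), where its other probe rose by 1.12. Cyp2b9 rose by 1.56 ± 0.42 in cHF+PC+R (adjusted p = 0.0174), as did Fmo2 and Atp6v0d2 by 0.22 and 0.27, the call of Atp6v0d2 being lost with the slide as a block (adjusted p = 0.0532). The Cyp families also respond to fatty acids and other ligands, and several have near relatives that their probes may bind.

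Of 13 tested genes that insulin or fasting is known to regulate, as it does Igfbp1, 2 rose and 0 fell in cHF+PC, 1 rose and 1 fell in cHF+R, and 1 rose and 1 fell in cHF+PC+R. All tested probes passed at 3.84%, 2.98% and 9.03% in these groups against cHF. Foxo1, the factor that insulin keeps out of the nucleus, rose by 0.18 ± 0.05 in cHF+PC (adjusted p = 0.0424) and by 0.17 ± 0.05 in cHF+PC+R (adjusted p = 0.0268), but not with the slide as a block (adjusted p = 0.0799 and 0.0538). Its other probe rose by 0.24 and 0.19 in the same groups (adjusted p = 0.0153 and 0.0346). Creb3l3, a hepatic factor of the fasting response, rose by 0.30 ± 0.07 in cHF+PC (adjusted p = 0.0148) and fell by 0.35 ± 0.08 in cHF+R (adjusted p = 0.0139), where median centring gave 0.04. Pdk4, which blocks glucose oxidation, rose by 1.06 ± 0.28 in cHF+R (adjusted p = 0.0326). Sesn3, a FoxO target, fell by 0.21 ± 0.06 in cHF+PC+R (adjusted p = 0.0361), but not with the slide as a block (-0.19, adjusted p = 0.0676).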

How the data were processed

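Liver RNA of 29 mice was measured on Agilent 2-colour arrays, 1 array per mouse, against a Cy3 pool. Per the file headers, the deposited scanner files hold linear intensity per spot and channel with local background, placed on mm9; Agilent Feature Extraction 10.5.1.1 is named in the submitters' processing notes. Per the labels, the authors excluded 1 high-fat and 1 rosiglitazone array. A series table that the authors deposited gives log2 values for 25806 probes (median 9.03 in each column), used as an alternative; its columns followed their own array's Cy5 (r from 0.990 to 0.999) and not a ratio, and its normalization and centring are not given in the sources used here.

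Intensities were corrected with normexp (offset 50) and normalized by loess within arrays (limma 3.58.1, R 4.3.3). Outlier spots were dropped and spots of a probe averaged. A probe was kept if at least 6 arrays had it well above background in Cy5 and at least 20 gave it a value (23932 kept). Of 39429 probes, 26412 were named by accession, 3854 by symbol and 735 by synonym, while 8428 keep the file's name. Group means of all 29 arrays were fitted with lmFit and eBayes; tests are two-sided, adjusted by Benjamini-Hochberg over all kept probes, threshold 0.05. No dyes were swapped. Slides numbered 8, none holding more than 1 array of a group, so slide was run as a block. Same-numbered replicates were not paired in the fit reported: 13 of 40 such pairs had r over 0.1, and 27 shared a slide. Each member's brightest probe stands for it in pairs and likeness. Named pathway genes are up to 4 per list and comparison against cHF by smallest adjusted p, plus Jak2, Cish, Igf1r, Insr, Foxo1 and Irs2. The result of 1 listed gene, and the count in cHF+R that rests on it, are not reported here. Members and lists were chosen with earlier results of these data known. The code was tested on simulated data. Figures used matplotlib.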

Additional observations from a re-analysis of the deposited data

Results flagged for a closer look

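A search was made in 72 groups of livers (18 probes in 4 diets) for a liver far from the others of its group, by the gap to its neighbour over the range of the group. It marked 9 groups, from 6 livers, where chance marks about 1 in 20 of independent groups. Probes of the same gene repeat the same livers, so the 72 groups are not independent. The count of marks can therefore not be read against that share. By Igfbp2, cHF+PC+R replicate 6 was the lowest of its group, at -0.22 with A_55_P2056729 and -0.15 with A_66_P135391. By the same probes cHF replicate 1 was the highest of its group, at -0.19 and -0.0873. Leaving out any one array moved the Igfbp2 change in cHF+PC+R against cHF between 1.42 and 1.63 with A_55_P2056729. Igfbp1 was far above the rest of its group in cHF+PC replicate 2, at 2.62. Igf1 variant 2 (A_55_P2085979) was high in cHF+PC replicate 8, at 0.60, and in cHF+R replicate 1, at 0.86. In cHF+PC+R replicate 4, Socs2 probe A_55_P1992838 was high at 1.75 and Igf1 probe A_55_P2031636 at 0.34.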

How the results depend on the processing

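Of the 13 member calls, those of Igfbp2 stood with each array left out and were lost only on scaling between arrays (all 6) and on median centring (4 of 6). Igfbp4 in cHF+PC was also lost with Feature Extraction signals, with array weights and with only the compared groups fitted. Array weights also lost Igfbp4 in cHF+PC+R against cHF+R (0.32, adjusted p = 0.0568). By A_55_P2056729 the Igfbp2 change ranged from 1.11 to 1.33 in cHF+PC and from 1.39 to 1.63 in cHF+PC+R against cHF. Counts of member probes are given for cHF+PC, for cHF+R and for cHF+PC+R (each against cHF) and then for cHF+PC+R against cHF+R, where the fit reported had 3, 2, 5 and 3. Median centring in place of loess gave 0, 0, 2 and 0, and scaling between arrays after loess 0, 0, 0 and 0; the cause was not tested. In cHF+R against cHF, quantile-normalized Cy5 alone, 1 probe per gene (9 tested) and the slide as a block each gave 1, the slide block calling an Igf1 probe and neither for Ghr. One probe per gene gave 3 in cHF+PC+R against cHF. With each array left out in turn the counts were 2 to 3, 0 to 2, 4 to 5 and 2 to 4; in cHF+R it was 0 without cHF+R replicate 3 and 1 without cHF+R replicate 1 or 5 or cHF replicate 2 or 3. The counts of 0 for cHF+PC+R against cHF+PC and for the interaction were 0 in all alternatives. Ghr probe A_55_P2059412 in cHF+R turned to 0.00 (0.00453) on median centring, and Creb3l3 there to 0.0400. Of 35 calls of pathway genes, 1 stood on median centring, 2 on scaling, 15 with Cy5 alone and 30 with the slide as a block. For all probes, median centring left 12, 97, 109 and 60 calls and scaling 361, 97, 195 and 112, against 918, 712, 2162 and 1603. The share of calls that were higher in cHF+R against cHF was 65.9%, but 93.8% on median centring, 86.6% on scaling and 39.4% in the deposited table. With the replicate number as a replicate block, member counts were again 3, 2, 5 and 3, so the block changed no member call. The all-probe counts were 1043, 687, 2286 and 1636. Over 40 same-numbered pairs across groups the median r was 0.03, and 27 of these pairs shared a slide. Whether the numbers pair the mice cannot be told from these values. Keeping outlier spots, chosen after seeing the data, also gave 3, 2, 5 and 3.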

Other observations

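The variant 2 probe of Igf1, which did not follow the other Igf1 probes, was set against Cish and Socs2 after its values were seen, with all values as deviations from group means over 29 livers. With Cish, the feedback inhibitor that STAT5 induces, it had r = 0.83 and rho = 0.86 (permutation p = 1e-05 each, the smallest that 100000 permutations can give, and 3e-05 adjusted over 3 pairs). Without the 2 livers farthest from its median r was 0.80, with the slide removed 0.85, and within the 4 diets 0.79 to 0.93. With Socs2 it had r = 0.34 and rho = 0.40 (permutation p = 0.0877 and 0.0366). Cish and Socs2 had r = 0.47 and rho = 0.49 (permutation p = 0.0101 and 0.00807, adjusted 0.0152 and 0.0121), and within diets r lay between -0.04 and 0.92.

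A probe annotated as similar to Igfbp3 (LOC100045701, A_55_P1992715, mm9 chr11:7107949-7108008) was well above background on 0 of 29 arrays and so was not among the kept probes.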
